A study of Homo sapiens with 6 samples.

Results

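The back-loaded coding sequences are the 200 mRNAs, of 7199 that could be measured, on which in-frame ribosome-protected fragments (RPFs) lay most unevenly towards the end of the coding sequence (CDS). They were selected on the deposited occupancy values themselves. From the 9570 transcripts of the table, the rule kept those with at least 200 codons and at least 100 codons above 0, left out the first and last 15 codons, capped each transcript at its 99th percentile and split what remained at its midpoint into a 5′ side and a 3′ side. The members are the 200 lowest values of the log2 ratio of mean occupancy on the 5′ side to that on the 3′ side, so this ratio describes how they were chosen and carries no test. The data come from HEK293, an established human embryonic kidney cell line, labelled as receiving a control siRNA in every sample, with 3 RPF libraries and 3 total RNA libraries. No treated group is analysed here, so each comparison is between mRNAs of the same cells. Occupancy is the number of in-frame RPFs on a codon, normalized for library size and divided by the abundance of the mRNA, and the deposited values combine the 3 RPF libraries. Cycloheximide, which stalls elongating ribosomes, was present from shortly before lysis. Of 8 genes listed as markers of this line, 7 were present in the deposited tables, and PAX2 was not listed. Translational efficiency (taken here as RPFs relative to total RNA of the gene) was given for 5 of them, at 2.42 ± 0.0507 (SD, n = 3) for vimentin (VIM), 1.805 ± 0.481 for NEFM, 1.35 ± 0.0314 for NEFL, 0.760 ± 0.102 for INA and 0.191 ± 0.00796 for DBN1, which lay below the median of all genes (0.385). Of 5 markers of other cell types, PTPRC, ALB and CDH5 were not listed, and COL1A1 and CD68 were, COL1A1 with a translational efficiency of 0.697 ± 0.154 (SD, n = 3).

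An elongating ribosome covers close to 30 nt of mRNA, and the fragments that it protects give its position codon by codon. On an mRNA translated from its annotated start at an even pace, fragments are spread along the whole CDS. Where fragments are counted along a CDS also depends on the transcript and the start codon that a gene uses, on which fragments are recovered in library preparation and on which can be placed uniquely.

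Between the sides, the median member had 3.20 times the occupancy on its 3′ side (median log2 ratio −1.68), against a median log2 ratio of 0.07 over all 7199 mRNAs (quartiles −0.29 and 0.46). In 62 members the difference was at least 4-fold and in 14 at least 8-fold. The rule draws its line within a continuous range: EYA4 (−1.3237), TMEM33 (−1.3214) and SMAD9 (−1.3212) were the last mRNAs inside it, and SENP3 (−1.3194), SP3 (−1.3182) and TSPYL4 (−1.3177) the first outside. The low values of each transcript were built from whole multiples of 3 small steps, 1 for each library, and dividing by these gave back 872132 in-frame reads for the members, with a median of 1526 per mRNA and a range from 217 to 86494. On the 5′ side the median was 270 reads and on the 3′ side 1122.5. Only 6 members had fewer than 50 reads on the 5′ side. Counted separately, all 200 members were below 0 in each of the 3 libraries, as were 2661 of all 7199 mRNAs, and the SD of the log2 ratio between libraries had a median of 0.178 over the 199 members with reads on both sides in each library. Of the members, 177, 168 and 164 were among the 200 lowest of a single library, and 138 were among the 200 lowest of all 3. The libraries entered the rule together, so this describes the spread between them and is no separate evidence.

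Most of the members, though not all, had a trait that the rule did not use, a 5′ side richer in G and C than the 3′ side. Windows of 30 codons centred at 25% and 75% of the trimmed CDS show this in members of the lowest ratios that share under 5% of their 30-mers with other genes, and these windows, from 5 of the 6 lowest such mRNAs, are printed because both the composition and the reads can be seen in them. Codons with at least 1 in-frame read are in capitals and codons with none in lower case. The sequences are those of the GRCh37 reference in coding direction, and the first window of each mRNA is from the 5′ side. EID2, an inhibitor of differentiation that binds the acetyltransferase p300, is shown at chr19:40030477-40030566 and chr19:40030165-40030254 (minus strand). HOXB9, a homeobox transcription factor, is at chr17:46703377-46703466 and, with an intron between, chr17:46700430-46703136 (minus strand). PDCD7, a protein of the minor spliceosome, is at chr15:65425688-65425777 and chr15:65412186-65412275 (minus strand). DNAAF2, which helps assemble the dynein arms of cilia, is at chr14:50101172-50101261 and, with an intron between, chr14:50094829-50100049 (minus strand). ARL6IP6, a membrane protein, is at chr2:153575286-153575375 and, with an intron between, chr2:153577088-153591584 (plus strand).
EID2 5′ side: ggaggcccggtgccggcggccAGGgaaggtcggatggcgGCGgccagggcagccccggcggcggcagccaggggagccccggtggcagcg
EID2 3′ side: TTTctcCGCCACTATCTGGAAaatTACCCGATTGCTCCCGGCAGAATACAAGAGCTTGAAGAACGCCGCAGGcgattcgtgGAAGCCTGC
HOXB9 5′ side: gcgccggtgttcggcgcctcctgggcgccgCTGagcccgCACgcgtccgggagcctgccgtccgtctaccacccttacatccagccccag
HOXB9 3′ side: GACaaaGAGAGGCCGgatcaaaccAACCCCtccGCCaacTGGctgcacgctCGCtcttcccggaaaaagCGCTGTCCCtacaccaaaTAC
PDCD7 5′ side: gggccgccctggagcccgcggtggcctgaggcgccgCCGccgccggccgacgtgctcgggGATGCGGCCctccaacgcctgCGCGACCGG
PDCD7 3′ side: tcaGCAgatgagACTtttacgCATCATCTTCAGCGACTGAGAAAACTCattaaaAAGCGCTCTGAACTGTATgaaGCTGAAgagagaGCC
DNAAF2 5′ side: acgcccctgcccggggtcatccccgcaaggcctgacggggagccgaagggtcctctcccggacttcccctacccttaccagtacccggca
DNAAF2 3′ side: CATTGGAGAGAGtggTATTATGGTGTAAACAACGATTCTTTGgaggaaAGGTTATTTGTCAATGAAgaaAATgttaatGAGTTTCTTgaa
ARL6IP6 5′ side: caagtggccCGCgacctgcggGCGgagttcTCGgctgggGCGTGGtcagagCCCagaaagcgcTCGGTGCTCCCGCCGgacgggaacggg
ARL6IP6 3′ side: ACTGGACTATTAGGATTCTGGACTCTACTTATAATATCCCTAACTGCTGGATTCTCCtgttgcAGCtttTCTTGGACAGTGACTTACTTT

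In these windows G and C made up 83.3% of the 5′ window of EID2 and 53.3% of its 3′ window, and 2 and 420 reads fell in them. The windows of PDCD7 had 83.3% and 43.3% G and C with 17 and 442 reads, those of DNAAF2 70.0% and 33.3% with 0 and 137 reads, those of HOXB9 74.4% and 57.8% with 3 and 47 reads, and those of ARL6IP6 73.3% and 40% with 43 and 617 reads. In each of these 5 mRNAs the 5′ window had more G and C and held fewer reads. The rule chose mRNAs with low occupancy on the 5′ side, so the order of the reads follows from the choice. The same windows went otherwise in other members with under 5% shared. PRDM13, the remaining mRNA of the 6, is shown with its values further on. FLT4 had 56.7% G and C with 2 reads in its 5′ window and 72.2% with 7 reads in its 3′ window, and HOXA11 had 71.1% in both, with 25 and 45 reads.

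Composition was then compared over the whole set. A reference CDS of the same length was found for 193 members and for 6924 of the 7199 mRNAs (96.2%). The 5′ side of the members had a median GC content of 67.0% and the 3′ side 51.3%, with a median difference within mRNAs of 13.2 percentage points (quartiles 7.20 and 21.4). Over all matched mRNAs the medians were 49.9% and 49.1%, with a difference of 0.0742 points. The 5′ side was the richer in G and C in 183 members (94.8%) and in 50.6% of all mRNAs, and it was richer by at least 10 points in 124 members (64.2%) and in 6.53% of all. In the 200 mRNAs with the highest ratio, which were loaded towards the start, 179 could be matched and the order was turned round, at 52.7% on the 5′ side and 61.2% on the 3′ side. The back-loaded 5′ sides were also rich in the amino acids that GC-rich codons encode, with a median of 30.4% alanine, glycine and proline against 17.3% on the 3′ side and 18.4% on the 5′ side of all mRNAs. Runs of 3 or more prolines, which slow the ribosome, lay in the 5′ side of 52 members (26.9%) and of 15.2% of all mRNAs. In the mRNAs loaded towards the start, such runs lay in the 3′ side of 31.8%, against 13.8% of all mRNAs. The members were shorter than the rest, with a median of 382 codons against 526, and had 5 coding exons against 10. Their first coding exon covered a median of 74.9% of the 5′ side, against 8.45% over all mRNAs, and in 63 members (32.6%) the whole 5′ side lay in it.

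**Figure D1:**
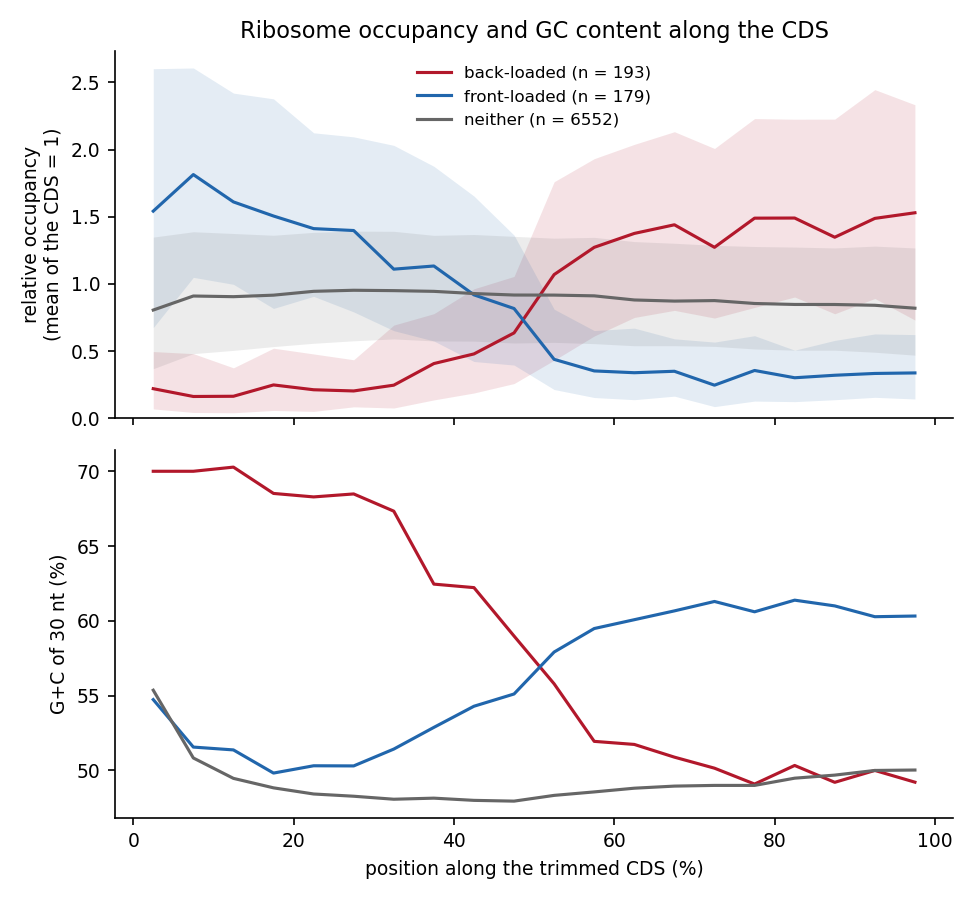
Median occupancy relative to the mean of each CDS (upper plot) and median percentage of G and C in the 30 nt around each codon (lower plot) in 20 bins along the trimmed CDS, for back-loaded, front-loaded and other mRNAs matched to the reference. Shading gives quartiles over mRNAs. In the back-loaded mRNAs the median occupancy was 0.22 in the first bin and 1.53 in the last, and GC content 70.0% and 49.2%.

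Along the CDS the change was gradual in the median. Since the rule split these same values at the midpoint and kept the most uneven mRNAs, it favours a change near the middle, and the position of the change is a description of the choice. Relative occupancy of the members was between 0.16 and 0.25 in the first 7 of 20 bins, 0.63 in the tenth and 1.07 in the eleventh, and GC content went from 70.0% in the first bin to 59.0% in the tenth and 51.9% in the twelfth. The largest step in each profile lay at a median of 52.0% of the CDS, within quartiles of 42.0% and 60.4%. In the mRNAs of neither group, relative occupancy stayed between 0.80 and 0.95 and GC content between 47.9% and 55.4% over the bins.

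**Figure D2:**
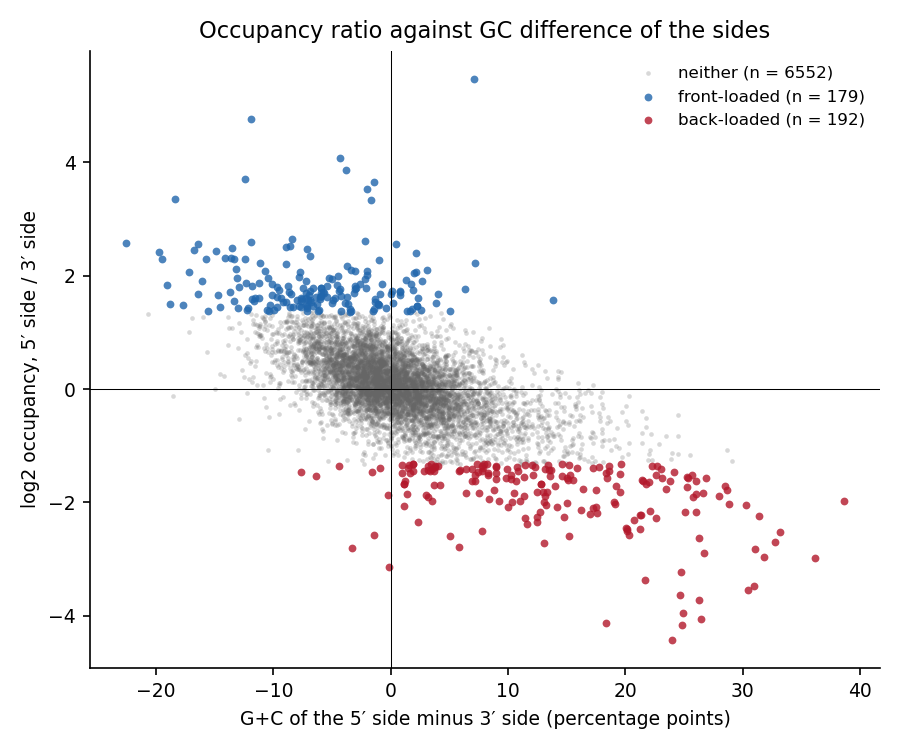
Log2 ratio of occupancy on the 5′ side to the 3′ side against the difference in GC content between the sides, for 6923 matched mRNAs with reads on both sides (PRDM13 has none on its 5′ side and is not drawn). The members spread along the lower right, and most mRNAs with a difference of 20 points or more are among them.

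Over the 6923 mRNAs with a finite ratio, the ratio and the GC difference had a Spearman correlation of −0.573 and a Pearson correlation of −0.626. Without the 200 mRNAs at either end the Spearman correlation was −0.532 over 6552 mRNAs. These are descriptions across mRNAs that share libraries and base composition. Of all matched mRNAs, 83 had a 5′ side richer by 20 points or more, and 57 of these (68.7%) were members. The other 26 had a median log2 ratio of −0.95, and all 26 were below 0. Of the 452 mRNAs with a difference of 10 points or more, 27.4% were members, and 304 of the 328 that were not members were below 0. The largest differences among the members were those of SAP30, a subunit of a histone deacetylase complex (74.0% and 35.4% G and C, log2 ratio −1.98), PAWR, a regulator of apoptosis (74.8% and 38.7%, −2.99), and GID4, which recruits substrates to a ubiquitin ligase (76.3% and 43.1%, −2.51), named after their values were seen. Among the members, the ratio was lower where the difference was larger: 42 of the 50 lowest and 19 of the 50 highest had a difference of at least 10 points.

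Codon by codon, occupancy was highest at 10 to 11 G and C bases in the 30 nt centred on the codon, and from there it fell with each richer class, in the members and in the rest. In mRNAs of neither group, mean occupancy relative to the CDS was 1.19 at 0 to 9 such bases, below the 1.28 at 12 to 13, then 1.35 at 10 to 11, 0.706 at 18 to 19, 0.173 at 22 to 23 and 0.012 at 26 or more. The members had 1.78 at 0 to 9 and went from 1.91 at 10 to 11 to 0.0112 at 26 or more, and the front-loaded mRNAs had 1.35 at 0 to 9 and went from 1.69 to 0.0258. A codon with 26 or more had an in-frame read in 2.99% of cases in the members, against 71.1% at 10 to 11. Such codons made up 6.0% of the 5′ sides and 0.454% of the 3′ sides of the members, and 0.337% of the codons of the mRNAs in neither group.

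**Figure D3:**
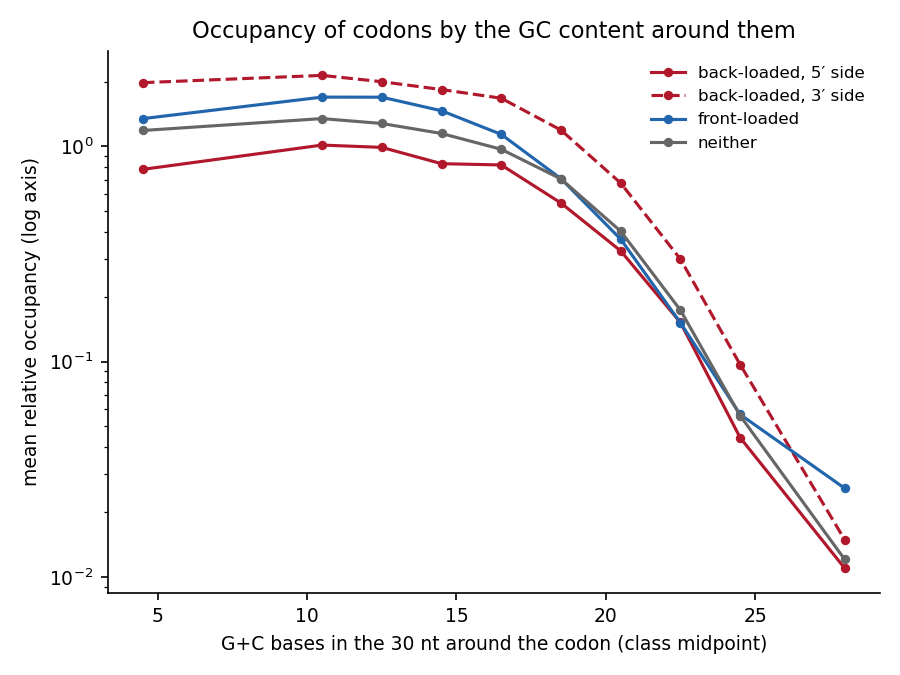
Mean occupancy relative to the mean of the CDS (log axis) against the number of G and C bases in the 30 nt around the codon, for both sides of the back-loaded mRNAs, for front-loaded mRNAs and for mRNAs of neither group. All lines fall to between 0.011 and 0.0258 in the richest class, and at a given composition the 3′ side of the members lies above their 5′ side.

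The sides of the members also differed at equal composition. At 14 to 15 G and C bases, the 5′ sides of the members had a mean relative occupancy of 0.831 and the 3′ sides 1.84, and at 20 to 21 they had 0.327 and 0.675. Of 154 members with at least 10 codons of 14 to 17 G and C bases on each side, 131 had the lower occupancy on the 5′ side at these codons, with medians of 0.786 and 1.56. The log2 ratio that each member would have if every codon took the mean value of its composition class in mRNAs of neither group was also computed. It had a median of −0.95 in the members and −0.01 over all matched mRNAs, was below 0 in 181 of 193 members, and made up at least 50% of the observed log2 ratio in 104 of 192. What remained had a median of −0.90. These values come from the occupancy that chose the members, so the choice itself favours a difference between the sides at equal composition. How much of the difference the choice gave was not measured. Whether composition acted on the ribosomes or on the recovery of fragments was not tested.

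The lowest ratios belonged to mRNAs of varied function. PRDM13, a zinc finger regulator of neural development (chr6:100054709-100063438), had 0 reads over the 339 codons of its 5′ side and 201, 153 and 93 reads on its 3′ side in the 3 libraries, which are given here in order of depth within each mRNA and are not tied to the replicate numbers. With 3 reads as the floor for a count of 0, pooled over the libraries, occupancy was at least 149-fold lower on the 5′ side. The first read lay on codon 383 of 708, and there was none in the first 15 codons either. TAF10, a subunit of the TFIID and SAGA complexes (chr11:6627524-6633447), had 43, 20 and 10 reads on its 5′ side and 650, 467 and 365 on its 3′ side, with a log2 ratio of −4.42. Its value is uncertain because 88.7% of the 30-mers of its 3′ side also occur in transcripts of other genes. HOXB9 (chr17:46698518-46703720) had 21, 15 and 5 reads against 326, 264 and 165, with a log2 ratio of −4.12. EID2 (chr19:40029347-40030801) had 21, 18 and 13 reads against 453, 356 and 223, with a log2 ratio of −4.17. PDCD7 (chr15:65409717-65426146) had 22, 20 and 9 against 424, 326 and 258, with a log2 ratio of −4.06. Galectin-3 (LGALS3, chr14:55595970-55612141), a lectin with a tail of proline and glycine repeats ahead of its sugar-binding domain, had 25, 14 and 8 reads against 294, 185 and 153, with a log2 ratio of −3.62. In every one of these mRNAs the 5′ side was far below the 3′ side in each library. The rule chose them for this on the same libraries, so it is no separate evidence. Alanine, glycine and proline made up 62.8% of the 5′ side of TAF10 and 68.2% of that of LGALS3, and 18.9% and 14.4% of their 3′ sides. The others of the 12 lowest were ARL6IP6 (−3.94), DNAAF2 (−3.72), PNRC1, a proline-rich coactivator of nuclear receptors (−3.55), FBXL17, an F-box adaptor of a ubiquitin ligase (−3.48), OTUD1, a deubiquitinase (−3.36), and PGRMC2, a haem-binding membrane protein (−3.23). Of the 12 lowest, every mRNA but PRDM13 was richer in G and C on its 5′ side, by at least 18.4 points.

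**Figure D4:**
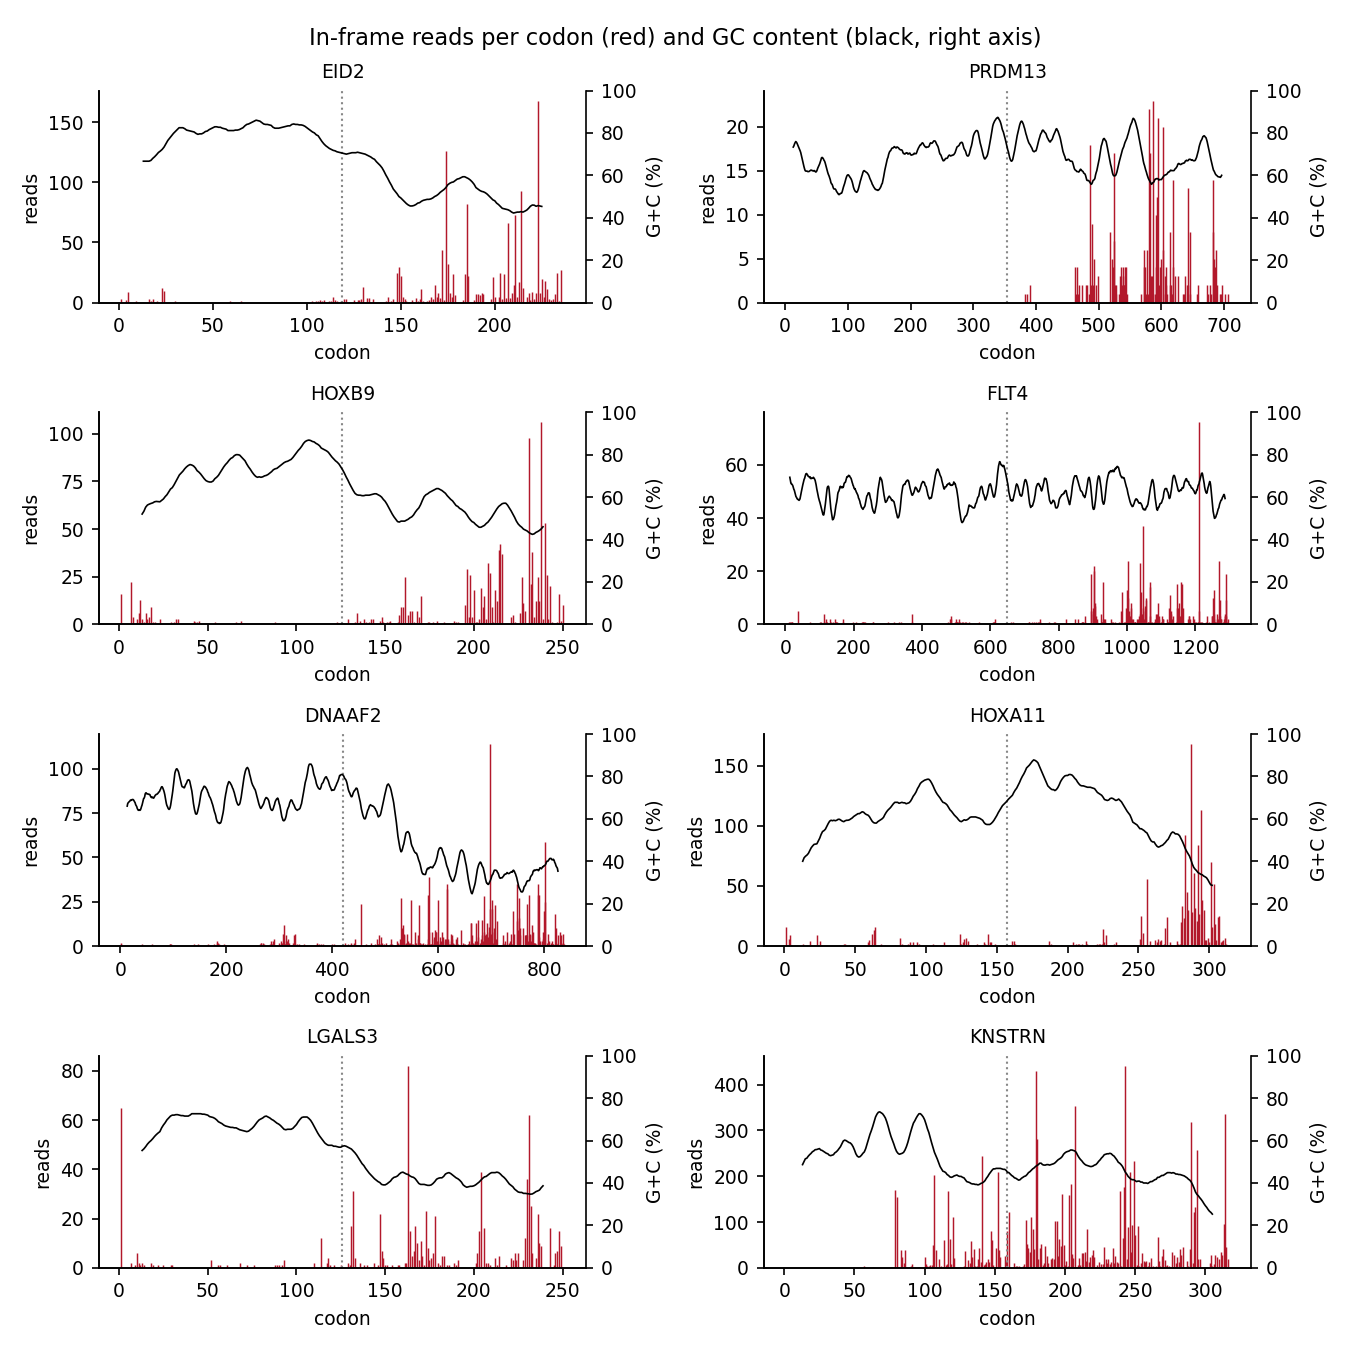
In-frame reads per codon over the 3 libraries (red bars, left axis) and percentage of G and C in 30 nt, smoothed over 15 codons (black line, right axis), for 8 members. The dotted line marks the midpoint. In EID2, HOXB9, DNAAF2 and LGALS3 reads gather where GC content drops, in PRDM13 none lies before codon 383, in FLT4 823 lie on the 391 codons from codon 894 and 109 on the 878 before it, and in KNSTRN 8 lie before codon 79.

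Of the members, 37 had sides within 5 points of each other in GC content (19.2%), against 70.7% of all matched mRNAs, and their median log2 ratio was −1.46. In 27 of these 37, under 5% of the 30-mers of each side were shared with other genes. FLT4, the receptor VEGFR-3 for lymphatic growth factors (chr5:180034965-180076624), had 62.4% G and C on its 5′ side and 62.5% on its 3′ side and a log2 ratio of −3.14. It had 109 reads over the 878 codons before its step at codon 894 and 823 reads over the 391 codons from there on. In the same way PRDM13 had 67.6% and 69.2% G and C. HOXA11 (62.7% and 64.1%, log2 ratio −2.58), the ubiquinone synthesis factor COQ9 (58.8% and 55.6%, −1.91), the sulfurtransferase TST (64.2% and 61.2%, −1.88) and geminin (GMNN, 41.1% and 39.3%, −1.44) were further examples. Those not otherwise covered by the naming rule, COQ9, TST and GMNN, were chosen after their values were seen. In the windows of PRDM13 (chr6:100061019-100061108 and chr6:100062036-100062125, plus strand), shown in the same notation as a contrast to the mRNAs above, composition was close on both sides and the reads were not. G and C made up 68.9% and 67.8% of the windows of PRDM13, with 0 and 60 reads.
PRDM13 5′ side: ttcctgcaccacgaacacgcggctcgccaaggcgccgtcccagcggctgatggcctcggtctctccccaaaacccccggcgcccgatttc
PRDM13 3′ side: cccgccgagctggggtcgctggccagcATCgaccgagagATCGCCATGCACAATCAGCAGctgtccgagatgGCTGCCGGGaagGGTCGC

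Other transcripts of a gene can start their CDS farther downstream. An annotated form that begins inside the CDS in frame and ends at the same stop codon was present for 37 members (19.2%) and for 21.3% of all matched mRNAs, and a start at 20 to 80% of the CDS for 28 members (14.5%) and 10.9% of all. The downstream start lay within 20 codons of the step in 8 members (4.15%) and in 3.02% of all mRNAs, so the share was near that of the whole table. In a pair of these, start and step fell on the same codon. KNSTRN, a spindle protein, had 8 reads on the 78 codons before the annotated downstream start and 9883 on the 239 codons from it, 0.103 and 41.4 reads per codon. DCAF13, a ribosome biogenesis factor, had 19 reads on 152 codons and 17888 on 446, although 22.5% of the 30-mers of its 3′ side are shared with other genes. In DCAF13 the 5′ side was also the richer in G and C, at 54.5% against 38.6%, and in KNSTRN it had 54.3% against 45.4%. The 30 codons around the start in KNSTRN (chr15:40675226-40675498, plus strand, across 1 intron) are given because reads rise there, again with codons that held reads in capitals, and the downstream ATG is codon 79, the sixteenth of the stretch.
KNSTRN: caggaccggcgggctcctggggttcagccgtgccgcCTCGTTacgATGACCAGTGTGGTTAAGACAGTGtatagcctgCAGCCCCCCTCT

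Of the 15 codons ahead of that ATG only 2 held reads. The other 6 had smaller contrasts. Reads per codon before and from the downstream start were 0.691 and 7.53 in AMMECR1, 0.464 and 1.802 in GATA4, a transcription factor of heart and gut, 1.49 and 9.01 in CXorf38, 18.1 and 48.7 in the mitochondrial ribosomal protein MRPL21, 2.62 and 7.12 in MTERF4, which acts on mitochondrial rRNA, and 0.632 and 1.65 in PGAP2, which remodels GPI anchors. AMMECR1, GATA4 and CXorf38 were also richer in G and C on the 5′ side, by over 10 points. A form with a different first part that joins the CDS within 20 codons of the step was annotated for 5 members (2.59%) and for 2.20% of all. In MITF, the transcription factor of melanocytes, this join lay at codon 294 and the step at codon 291, with 133 reads on the 278 codons before the join, counted without the first 15 of the CDS, and 316 on the 228 codons from it to the end, with the last 15 included. Of 17 measured mRNAs known for a shorter protein form, 2 (11.8%) were members, against 2.78% of all mRNAs, a difference that was not tested. The members were CEBPB (−2.13), whose downstream AUG gives a shorter inhibitory form, and MITF (−1.36). Of the 17, 9 had a ratio below 0, as did 3218 of all 7199 mRNAs. CEBPB found no CDS of equal length in the reference, so its GC content was not measured.

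Most measured HOX genes were members. Of 28 measured HOX, SOX and FOX transcription factors, 8 (28.6%) were members, against 2.78% of all mRNAs, and all 8 were HOX genes: HOXB9 (−4.12), HOXA11 (−2.58), HOXB6 (−2.38), HOXD13 (−2.20), HOXC8 (−2.16), HOXA13 (−2.14), HOXA10 (−1.63) and HOXA9 (−1.39). Looking at HOX genes alone was decided after these values were seen. The 2 other measured HOX mRNAs, HOXA5 (−1.07) and HOXC4 (−0.63), were below 0 as well, and the 10 together had a median log2 ratio of −2.15. HOX genes encode their DNA-binding homeodomain near the C-terminus, in the second of the 2 coding exons. Over the 10 mRNAs the 5′ side was richer in G and C by a median of 12.2 points, and in HOXA11 alone it was the poorer side, by 1.41 points. In HOXA11 reads gathered past its step at codon 280 of 314: 863 reads lay on the 20 codons from there on and 442 on the 264 before it, and the 30 nt around these codons had 37.7% and 65.4% G and C. HOXA9 is uncertain because 76.3% of the 30-mers of its 3′ side are shared with other genes.

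The other lists gave from 0 to 7 members each, where 2.78% of all measured mRNAs were members. Families were listed by the first letters of the gene symbol. They therefore leave out genes of the same kind with other names, such as PRDM13 and GID4 among the members, and the counts are not those of whole functional classes. C2H2 zinc finger factors gave 7 members of 341 (2.05%): ZNF367, ZNF713, ZNF286B, ZNF274, ZFP28, ZNF527 and ZNF670. Solute carriers gave 4 of 136 (2.94%), SLC10A4, SLC7A6OS, SLC46A1 and SLC2A8, although SLC7A6OS is named for a neighbour and is not a carrier. Ubiquitin ligases and their adaptors gave 5 of 123 (4.07%): FBXL17, RNF44, TRIM44, RNF121 and KLHL42. Transmembrane proteins of the TMEM list gave 2 of 70 (2.86%, TMEM65 and TMEM33) and mitochondrial ribosomal proteins 2 of 32 (6.25%, MRPS30 and MRPL21). The CCDC and CEP list gave 1 of 68 (1.47%, CCDC102A), helicases 1 of 36 (2.78%, DDX28) and ribosomal proteins 1 of 22 (4.55%, RPL13A). The list of kinesins and dyneins, the regulators of small GTPases and the deubiquitinases named USP gave 0 of 30, 0 of 63 and 0 of 33, and both measured clustered protocadherins were outside the set. XBP1, whose spliced mRNA changes its reading frame, was also outside it (0.46). For RPL13A 4 codon values were too high to be turned into reads and all of the 30-mers of its 3′ side are shared, so its ratio (−1.40) is uncertain.

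Sequence shared with other genes was about as common in the members as in the whole table. More than 5% of the 30-mers of the 3′ side occurred in transcripts of other genes in 42 members (21.8%) and in 20.5% of all mRNAs, and for the 5′ side in 16.1% and 20.3%. The tubulins TUBB3 (−2.80), TUBB2A (−1.53) and TUBB2B (−1.47), each shared over the whole 3′ side, are uncertain, since reads of near-identical genes could not be told apart, and they were named after their values were seen. A single codon carried at least 20% of the CDS occupancy in 4 of the matched members (2.07%) and in 0.679% of all. In the front-loaded mRNAs the share was 2.23%, near that of the members. In PRPH, peripherin, which was named after its value was seen, codon 386 of 471 held 48.6%. The longest members were KDM2B (1337 codons), PHLDB1 (1320), FLT4 (1299) and the Hippo pathway kinase LATS2 (1089).

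The translational efficiency of the members was not used by the rule, although it rests on the same RPF libraries. The rule did require a minimum number of codons with reads. A short mRNA with few reads on its 5′ side meets this minimum more readily where RPFs on its 3′ side are dense. The mRNAs compared with the members below were not matched to them for length or for a sparse side. How much the minimum shaped the counts and medians, including those of the composition classes, was not tested. The table lists 167 of the 200. By limma on log2(value + 0.01), with each gene set against the median of all 8121 and Benjamini-Hochberg adjustment at 0.05, 89 members (53.3%) were higher and 62 (37.1%) lower, against 44.7% and 44.6% of all genes. Of the 5642 mRNAs that met the minimum of the rule and were listed, 41.7% were higher and 47.5% lower. The median translational efficiency of the members was 0.454, 0.536 and 0.488 in replicates 1 to 3, and that of all genes 0.382, 0.380 and 0.388. These counts and medians were given no test of their own. Mean occupancy over the whole CDS, the other deposited measure of RPFs per mRNA, was not higher in the members, with a median of 0.0439 against 0.0455 over all matched mRNAs. The counts were unequal between classes of composition. Of 106 members whose 5′ side was richer in G and C by at least 10 points, 67 (63.2%) were higher and 28 (26.4%) lower, with a median of 0.613. Of 289 mRNAs with such a difference outside the set, 51.2% were higher and 38.1% lower, with a median of 0.458. Of 27 members with sides within 5 points, 7 (25.9%) were higher and 18 (66.7%) lower, with a median of 0.266, and of 3770 such mRNAs outside the set 40.4% were higher and 48.9% lower, with a median of 0.345. The difference between these classes was not tested.

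**Figure D5:**
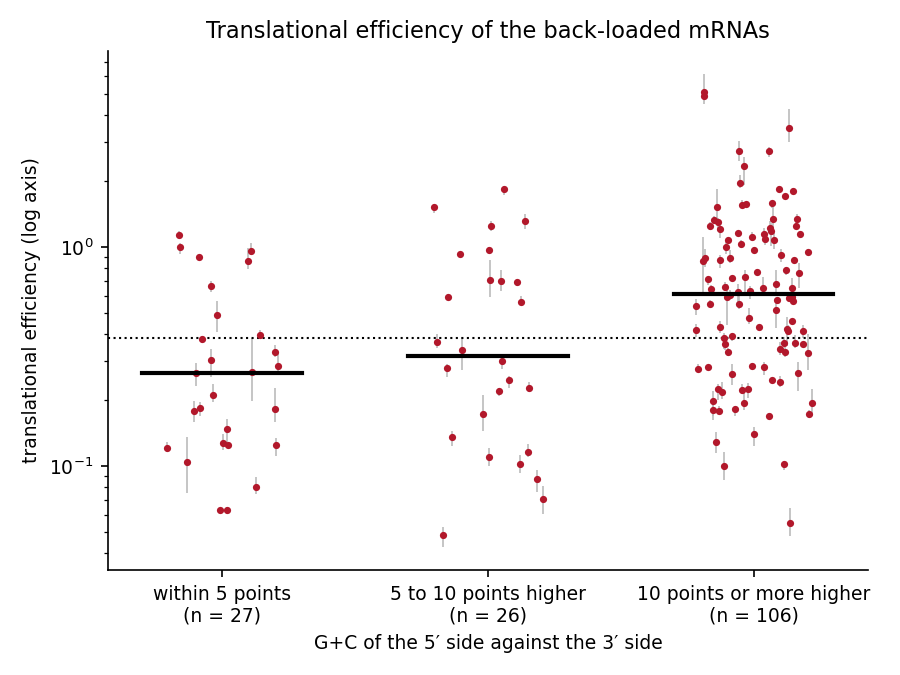
Translational efficiency (log axis) of 159 members in 3 classes of the GC difference between the sides. Points are means of 3 replicates, grey lines run from the lowest to the highest replicate, thick bars are class medians and the dotted line is the median of all genes (0.385). The class with a GC-rich 5′ side has a median of 0.613 and the class of equal sides 0.266.

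The highest translational efficiency belonged to NKAP, a nuclear protein of splicing and Notch signalling, with 6.13, 4.51 and 4.72 in replicates 1 to 3, which was 3.69 ± 0.101 (SE) above the median on the log2 scale (limma, adjusted p = 3.4e-06). AKIRIN2, which brings proteasomes into the nucleus, had 4.93, 4.83 and 4.90, and RFXAP, a subunit of the factor that drives MHC class II genes, had 3.21, 2.997 and 4.26. These were named for being the highest, as the next were for being the lowest. The lowest belonged to MPST, a sulfurtransferase, with 0.0497, 0.0525 and 0.0428, to PIK3R2, a regulatory subunit of PI 3-kinase, with 0.0643, 0.0478 and 0.0524, and to KDM2B, a histone demethylase, with 0.0617, 0.0642 and 0.063. PIK3R2 is uncertain because all of its 30-mers also occur in transcripts of other genes. MPST was at −2.76 ± 0.0662 (SE) from the median on the log2 scale (limma, adjusted p = 2.5e-06). Of the 12 mRNAs with the lowest ratio 11 were listed. EID2 (1.29 ± 0.0933, SD, n = 3), ARL6IP6 (1.25 ± 0.0585) and PGRMC2 (1.18 ± 0.149) were highest among them and 8 were called higher, PRDM13 (0.127 ± 0.0115) and DNAAF2 (0.266 ± 0.0407) were called lower, and PDCD7 (0.364 ± 0.0297) was called neither (limma, adjusted p = 0.298), where 44.7% of all genes were called higher and 44.6% lower. Of the 7 HOX members listed, HOXC8 (2.74 ± 0.294), HOXB6, HOXB9, HOXA10 and HOXA13 were higher and HOXA11 (0.331 ± 0.0228) and HOXA9 (0.179 ± 0.0101) lower, against the same shares of all genes.

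In the 5′UTR, 61 of the matched members (31.6%) had no in-frame read, against 21.03% of all mRNAs and 18.4% of the front-loaded mRNAs. Reads over the whole CDS had medians per mRNA of 1598, 2275 and 1437 in the same order. The cause of the differences between these shares was not tested. The longest run of codons without a read had a median of 21 codons in the members, 13 over all mRNAs and 21 in the front-loaded mRNAs.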

How the data were processed

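Ribosome profiling of HEK293 cells gave 3 RPF and 3 total RNA libraries. The authors trimmed reads with Cutadapt, removed PCR duplicates, used bowtie to place RPFs on the hg19 transcriptome and kept 1 transcript per gene, the most abundant. The submitters' processing notes list cutadapt 1.16, Bowtie 1.1.2, TopHat2 2.1.1 and HTSeq 0.9.1. The deposited occupancy values have no standard unit: in-frame RPF counts of the authors per codon, normalized for library size, divided by TPM and combined over replicates. The deposited translational efficiency, given per gene and replicate, was used as a linear ratio of the RPF level to the total RNA level, since the sources used here do not give its formula. Each replicate's total RNA was taken from the lysate of its RPFs, so such a ratio holds the pairing within it.

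In 31 transcripts a list broken over lines was rejoined, with 30 damaged codons set to missing. Whole reads were recovered at a tolerance of 1e-08 in 7196 of 7199 transcripts, except for 697 of 2496253 values above 0, of which 14 were in 5 members. On data simulated for the occupancy table, 499 of 500 transcripts were solved. Depth after trimming was 19739205, 15956724 and 10618186 in-frame reads in the 7196 transcripts, with the libraries ordered by depth within each mRNA. Reads are not tied to replicates, and PCR and mapping errors are outside what they cover. Transcripts were matched to GENCODE 44 on GRCh37, the build of hg19, by identifier or symbol and CDS length. Shared sequence is the share of 30-mers found in transcripts of other genes.

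limma 3.58.1 (R 4.3.3) was used to test translational efficiency as log2(value + 0.01), without a filter on low values. Tested on simulated data of 8121 genes, 86.0% of the 200 moved were called. P-values measure the spread between 3 replicates, which may be technical. Python 3.11.15, numpy 2.4.6 and pandas 2.3.3 were used. Named mRNAs are the 12 lowest ratios, the 12 lowest with under 5% shared 30-mers on each side, those with a shorter form starting within 20 codons of the step, the 4 longest, the 3 highest and 3 lowest in translational efficiency, the 3 just inside and outside, and members of the gene lists. The members and lists were chosen with earlier results of these data known.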

Additional observations from a re-analysis of the deposited data

How the results depend on the processing

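Of the 200 members, 177 were kept without a cap, 167 with a cap at the 95th percentile, 139 with 50 codons dropped at each end, 131 with the first against the last of 3 equal parts, 117 by the share of codons above 0 and 78 with a minimum of 200 codons above 0, which fewer short mRNAs can reach. The median log2 ratio of the same members was −1.80 without a cap, −1.48 with a cap at the 95th percentile, −2.29 between the outer of 3 equal parts, −0.84 by the share of codons above 0 and −1.55 in the 78 members with 200 codons above 0. With the ratio given by the composition of the footprint subtracted, an alternative chosen after seeing the data, 98 of the members were among the 200 lowest, and the median over all 193 matched members was −0.90. Leaving out members with 5% or more shared 30-mers, also chosen after seeing the data, left 146, with a median of −1.69. The causes of these changes were not tested, beyond what each setting changes by its construction.

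In translational efficiency, 89 members were higher and 62 lower, and a fit with a replicate block, in which the median of a replicate was taken off its own values, gave 89 and 62. With 1 replicate left out there were 86 to 87 higher and 58 to 61 lower. The other settings gave 88 to 92 higher and 56 to 62 lower. Depth limits single mRNAs: 6 members had fewer than 50 reads on the 5′ side, so their ratios are the least certain. PRDM13, HOXB9 and LGALS3 were among these. The 37 members with a shorter annotated form became 28 with a start at 20 to 80% of the CDS, and the 42 with shared sequence on the 3′ side became 30 at over 20%.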
